A study of Mus musculus with 25 samples.

Results

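The liver X receptors (LXR) and the genes through which they move sterols out of cells were read in the livers of mice joined by parabiosis, a surgery after which a pair of mice shares 1 circulation. The set holds 9 genes, taken by symbol from the deposited table: the receptors Nr1h3 and Nr1h2, the exporters Abcg5, Abcg8, Abca1 and Abcg1, and the targets Mylip, Lpcat3 and Pltp. They are 9 of 17838 genes with a usable value, and all 9 were among the 9372 genes tested. The 25 C57BL/6 mice fell into 5 groups of 5 after 5 weeks of parabiosis. O (Yg Het) livers came from 21-month-old wild type mice joined to young mice heterozygous for Manf, O (YgWT) livers from old wild type mice joined to young wild type mice, and O-O livers from old wild type mice joined to another old mouse. Yg Het livers came from the 5-month-old Manf heterozygous partners and Yg WT livers from the 5-month-old wild type partners. Manf encodes a secreted protein of the endoplasmic reticulum stress response, and only the Yg Het mice carried the Manf allele themselves. The pairs themselves, the sex of the mice and the time of day of collection are not given in the sources used here.

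LXR alpha (Nr1h3) and LXR beta (Nr1h2) are nuclear receptors that are activated by oxysterols, the oxidised forms of cholesterol, and bind DNA as partners of the retinoid X receptors. In the liver they are known for raising the genes that dispose of cholesterol. ABCG5 and ABCG8 together form the transporter that pumps sterols from hepatocytes into bile. ABCA1 and ABCG1 pass cholesterol to apolipoprotein A-I and to high-density lipoprotein (HDL), and ABCG1 is known above all from macrophages. MYLIP (also called IDOL) marks the LDL receptor for degradation, LPCAT3 builds polyunsaturated phospholipids into membranes, and PLTP moves phospholipids between lipoproteins.

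Abcg5 and Abcg8 lie head to head on mouse chromosome 17, and the short stretch between their starts is shown because their levels moved together from liver to liver. In the RefSeq promoter table of build GRCm38.p6, Abcg5 starts at 84683011 on the minus strand and Abcg8 at 84683121 on the plus strand, with 109 bases between them (chr17:84683012-84683120, plus strand). The table also holds a second Abcg8 start at 84676302, inside Abcg5, from which the gene's full annotated span runs; it is not used for the stretch shown. Capitals mark 2 matches to AGATAA, the letters read by GATA factors, and 1 match to TATAAA, all 3 on the minus strand.
Abcg5-Abcg8 gap: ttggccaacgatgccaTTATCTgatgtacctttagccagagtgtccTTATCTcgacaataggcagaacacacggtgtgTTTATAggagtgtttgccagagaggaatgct
Of 32817 mouse promoters in that table, searched on both strands over the same length before the start, 3.98% held AGATAA at least once, 0.186% held it at least 2 times and 5.91% held TATAAA. The letters AGGTCA, the core that nuclear receptors bind, were not in this window and are in 6.39% of the others. The start of Abca1 was searched because its promoter element is a textbook LXR site, in which a pair of receptor cores lies 4 bases apart. A loosened form of that element, with the Abca1 site known when it was written, matched from 67 to 53 bases before the start (chr4:53159948-53159962, read on the plus strand). The stretch around it is printed as the minus strand, on which Abca1 lies (chr4:53159923-53159987).
Abca1 promoter: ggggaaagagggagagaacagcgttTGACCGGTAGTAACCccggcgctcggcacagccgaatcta
The capitals mark the match. Among 8 genes of the set with a promoter in the table it was found in Abca1 alone, and it is in 0.524% of all 250-base promoter windows. A match is a description of letters, not evidence of binding.

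By RPKM, which is per length and so can be compared between genes, the order over all 25 livers was Abcg5 (mean 38.1 RPKM), Abcg8 (33.7 RPKM), Lpcat3 (28.6 RPKM), Nr1h3 (27.9 RPKM), Pltp (16.2 RPKM), Abca1 (14.7 RPKM), Nr1h2 (8.50 RPKM), Mylip (3.23 RPKM) and Abcg1 (1.52 RPKM). Lpcat3 and Nr1h3, neighbours in that order, had overlapping ranges over the 25 livers (18.54 to 36.19 RPKM and 20.74 to 35.74 RPKM), and so did Pltp and Abca1 (9.48 to 38.6 RPKM and 10.82 to 18.59 RPKM). Livers of the same group differed far more in some of these genes than in others. The within-group SD on the log2 scale was 0.41 for Abcg5, 0.43 for Abcg8 and 0.45 for Pltp, larger than that of 94.2%, 95.0% and 95.5% of tested genes. It was 0.15 for Nr1h3 and 0.14 for Nr1h2, close to the median of 0.16 over all tested genes. A given change therefore stood out less from the livers' own spread in Abcg5, Abcg8 and Pltp than in the receptors.

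**Figure D1:**
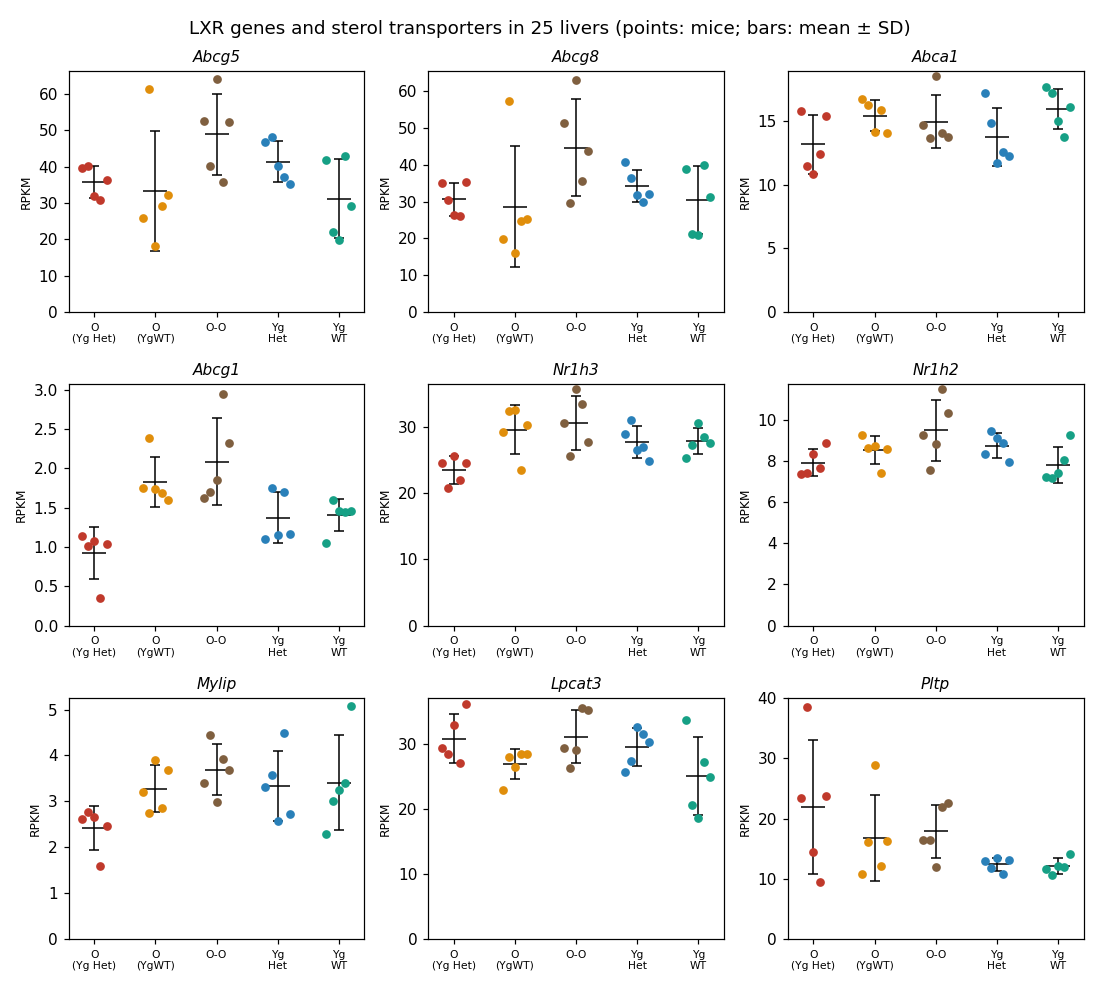
RPKM of each of the 9 genes in each liver, 1 panel per gene, with groups along the horizontal axis; points are mice and bars are mean ± SD (n = 5). Abcg1 in O (Yg Het) livers lies between 0.346 and 1.14 RPKM, below every O (YgWT) and O-O liver, while Abcg5, Abcg8 and Pltp spread widely within groups.

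The libraries were similar in depth. Whole reads could be recovered from the RPKM values for 99.9% of genes, within 0.02 reads, and the scaling rested on 21.8 to 27.6 M reads (megareads) per library. Reads per liver ran from 1318 to 4349 for Abcg5 and from 1350 to 2176 for Nr1h3, but only from 38 to 286 for Abcg1 and from 132 to 377 for Mylip. Manf, the targeted gene, averaged 4.47 ± 1.11 RPKM in Yg Het livers and 15.3 ± 6.47 RPKM in Yg WT livers (SD, n = 5 each), and these groups did not overlap (3.25 to 5.94 and 9.78 to 24.6 RPKM). Manf also differed between old groups, which are all wild type. It averaged 17.6 RPKM in O (YgWT), 7.12 RPKM in O (Yg Het) and 8.86 RPKM in O-O livers. The last 2 groups (4.955 to 9.52 and 5.90 to 12.1 RPKM) overlapped Yg Het livers. Hepatocyte markers were high in every liver, with sums over 8 genes of 16070 RPKM or more. In O (Yg Het) livers the deposited scale sat lower for most genes. The median over all tested genes was -0.14 on the log2 scale against O-O livers and -0.15 against O (YgWT) livers, and it moved to 0.01 and 0.00 when libraries were scaled by the median of ratios. Alb took 24640 to 52170 RPKM in O (Yg Het) livers, 11150 to 33090 RPKM in O (YgWT) livers and 18830 to 32340 RPKM in O-O livers. In what follows, a log2 difference is of RPKM plus 0.5 and is given ± SE with the limma p adjusted over 9372 genes by Benjamini-Hochberg. The added 0.5 shrinks the log2 difference of a gene as low as Abcg1.

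Among the receptors, LXR alpha fell in the livers of old mice with Manf heterozygous partners. Nr1h3 (chromosome 2, 91184061 to 91202834, mm10) read 24.62, 20.74, 25.68, 21.94 and 24.63 RPKM in O (Yg Het) livers. It read 29.25, 32.51, 32.57, 23.52 and 30.39 RPKM in O (YgWT) livers and 30.64, 25.63, 35.74, 33.45 and 27.7 RPKM in O-O livers. All but 1 O (YgWT) liver and all but 1 O-O liver stood above the highest O (Yg Het) liver, the O-O exception (25.63 RPKM) by less than 0.1 RPKM, so the groups overlapped by a single mouse each. Nr1h3 was lower in O (Yg Het) than in O-O livers by -0.37 ± 0.09 (adjusted p = 0.00890) and lower than in O (YgWT) livers by -0.32 ± 0.09 (adjusted p = 0.0138). Under median-of-ratios scaling these differences were -0.20 (adjusted p = 0.105) and -0.16 (adjusted p = 0.163), so neither call held on that scale. With Alb reads taken out of the total, the call against O-O livers held (-0.27, adjusted p = 0.0303) and that against O (YgWT) livers did not (-0.20, adjusted p = 0.0801). Young livers were close to each other, at 27.7 ± 2.402 RPKM in Yg Het and 27.9 ± 1.94 RPKM in Yg WT livers (SD, n = 5 each), a difference of -0.01 ± 0.09 (95% interval -0.21 to 0.19, adjusted p = 0.969).

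LXR beta passed the threshold in no comparison. Nr1h2 (chromosome 7, 44549616 to 44553951) averaged 7.92 ± 0.65 RPKM in O (Yg Het), 8.52 ± 0.68 RPKM in O (YgWT), 9.49 ± 1.49 RPKM in O-O, 8.74 ± 0.61 RPKM in Yg Het and 7.82 ± 0.87 RPKM in Yg WT livers. The differences nearest to the threshold both involved O-O livers, which were the highest and the most spread: -0.24 ± 0.09 in O (Yg Het) against O-O livers (adjusted p = 0.0579) and 0.26 ± 0.09 in O-O against Yg WT livers (adjusted p = 0.0660). Without the lowest O-O liver, replicate 2, both passed, at -0.31 (adjusted p = 0.0129) and 0.33 (adjusted p = 0.0164). Under median-of-ratios scaling with all livers they were smaller, at -0.07 (adjusted p = 0.546) and 0.17 (adjusted p = 0.126).

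The sterol pump of the bile canaliculus varied widely between livers of the same group. Abcg5 (chromosome 17, 84658234 to 84683011) read 39.73, 40.06, 31.81, 30.71 and 36.44 RPKM in O (Yg Het) livers, 25.81, 61.35, 18.29, 29.3 and 32.27 RPKM in O (YgWT) livers and 52.51, 40.13, 64.03, 35.77 and 52.17 RPKM in O-O livers. It read 46.69, 48.05, 40.09, 37.02 and 35.21 RPKM in Yg Het livers and 41.89, 21.9, 19.88, 42.9 and 29.24 RPKM in Yg WT livers. Every pair of groups overlapped, and O (YgWT) replicate 2 was more than 3 times as high as replicate 3 of its own group. Abcg8 (chromosome 17, 84676302 to 84700333) followed liver by liver. It read 35.00, 30.44, 26.29, 26.22 and 35.35 RPKM in O (Yg Het) livers, 19.96, 57.27, 15.92, 24.61 and 25.36 RPKM in O (YgWT) livers and 51.4, 29.71, 63.01, 35.51 and 43.65 RPKM in O-O livers. It read 40.82, 36.3, 31.87, 29.87 and 32.05 RPKM in Yg Het livers and 38.77, 21.07, 20.83, 40.01 and 31.16 RPKM in Yg WT livers. The same O (YgWT) replicate 2 and O-O replicate 3 were the highest for both genes, and the same O (YgWT) replicate 3 was the lowest.

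With group means subtracted, log2 levels of Abcg5 and Abcg8 correlated over the 25 livers at Pearson r = 0.954 and Spearman rho = 0.948 (permutation p = 1.0e-05 for each, two-sided, the smallest that the draws allow; 1 pair examined). Without the 2 livers farthest from the median of Abcg5, O (YgWT) replicates 2 and 3, r was 0.921 and rho 0.911 (n = 23). The genes share 82 exon bases on opposite strands, 3.02% of Abcg5 and 2.19% of Abcg8, and the strand setting of the counting is not given in the sources used here.

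**Figure D2:**
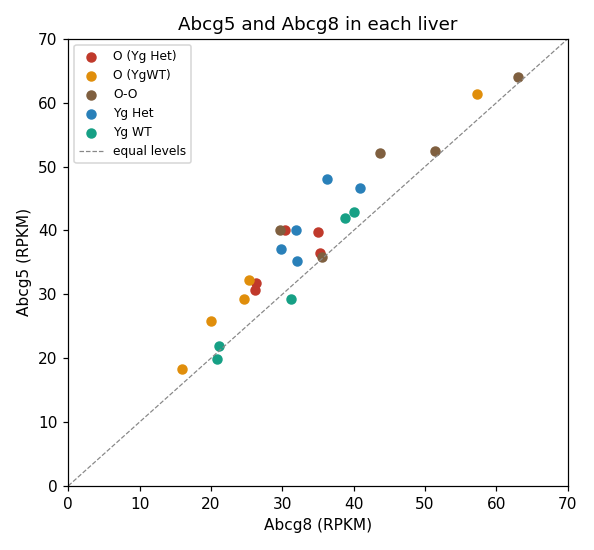
Abcg5 (vertical axis, RPKM) against Abcg8 (horizontal axis, RPKM), 1 point per liver coloured by group; the dashed line marks equal levels. Points run along the line from O (YgWT) replicate 3 (18.29 and 15.92 RPKM) to O-O replicate 3 (64.03 and 63.01 RPKM).

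Neither transporter gene passed the threshold between groups. Abcg5 averaged 33.4 ± 16.5 RPKM in O (YgWT) and 48.9 ± 11.2 RPKM in O-O livers (SD, n = 5 each), a log2 difference of -0.63 ± 0.24 (adjusted p = 0.187), and Abcg8 averaged 28.6 ± 16.5 RPKM in O (YgWT) and 44.7 ± 13.1 RPKM in O-O livers, -0.73 ± 0.25 (adjusted p = 0.146). O (YgWT) replicate 2 decides this: without it both genes were called lower, at -0.88 (adjusted p = 0.0332) for Abcg5 and -1.01 (adjusted p = 0.0192) for Abcg8. Against Yg WT livers, O-O livers were 0.68 ± 0.24 higher in Abcg5 (adjusted p = 0.0668) and 0.55 ± 0.25 higher in Abcg8 (adjusted p = 0.153). The Abcg5 difference passed without Yg WT replicate 1 (0.80, adjusted p = 0.0466) or replicate 4 (0.81, adjusted p = 0.0432). Between O (YgWT) and Yg WT livers the Abcg5 difference was 0.05 ± 0.24, with a 95% interval of -0.45 to 0.55 that leaves room for sizeable changes in either direction. Clock gene levels in O-O livers differed from those in O (YgWT) and Yg WT livers. Their sum over 12 genes was 58.97 to 111 RPKM in O (YgWT), 130.3 to 176.5 RPKM in O-O and 60.04 to 117.1 RPKM in Yg WT livers. The sum mixes directions: of 11 clock genes tested, 2 rose and 5 fell in O (YgWT) against O-O livers. Between O (YgWT) and Yg WT livers 0 of 11 passed. The part of clock genes in the Abcg5 and Abcg8 values was not tested.

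Of the exporters that load HDL, Abca1 passed the threshold nowhere and Abcg1 fell in O (Yg Het) livers. Abca1 (chromosome 4, 53030787 to 53159895) averaged 13.2 ± 2.29 RPKM in O (Yg Het), 15.5 ± 1.22 RPKM in O (YgWT), 14.98 ± 2.06 RPKM in O-O, 13.8 ± 2.30 RPKM in Yg Het and 15.96 ± 1.601 RPKM in Yg WT livers. The livers on the side of the Manf heterozygous mice were the lower ones at both ages on the deposited scale, by -0.23 ± 0.11 in O (Yg Het) against O (YgWT) livers (adjusted p = 0.115) and by -0.22 ± 0.11 in Yg Het against Yg WT livers (adjusted p = 0.275), with overlapping groups. The medians over all tested genes there were -0.15 and 0.05. Under median-of-ratios scaling the Abca1 differences were -0.07 (adjusted p = 0.692) in the old and -0.28 (adjusted p = 0.153) in the young.

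Abcg1 (chromosome 17, 31057675 to 31117988) gave the largest difference among the 9 genes and 7 comparisons of groups. It read 1.14, 1.007, 1.081, 0.346 and 1.038 RPKM in O (Yg Het) livers, against 1.743, 2.381, 1.741, 1.679 and 1.591 RPKM in O (YgWT) livers and 1.617, 1.698, 1.849, 2.938 and 2.326 RPKM in O-O livers. Every O (Yg Het) liver stood below every other old liver. Abcg1 was lower in O (Yg Het) livers by -0.88 ± 0.16 against O-O livers (adjusted p = 0.00200) and by -0.74 ± 0.16 against O (YgWT) livers (adjusted p = 0.00247). Both calls held under median-of-ratios scaling (-0.76, adjusted p = 0.00762, and -0.63, adjusted p = 0.00870) and without the lowest liver, O (Yg Het) replicate 4, which rests on 38 reads (-0.70, adjusted p = 0.00753, and -0.56, adjusted p = 0.00787). Voom on the recovered reads gave -1.28 (adjusted p = 0.00229) and -1.14 (adjusted p = 0.00169).

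Abcg1 in the young partners showed no such step. It read 1.101, 1.746, 1.149, 1.702 and 1.163 RPKM in Yg Het livers and 1.055, 1.597, 1.457, 1.449 and 1.452 RPKM in Yg WT livers, which overlapped widely, and the difference was -0.03 ± 0.16 (95% interval -0.37 to 0.30, adjusted p = 0.935). The difference between the contrasts, O (Yg Het) against O (YgWT) less Yg Het against Yg WT, was -0.71 ± 0.23 and did not pass (adjusted p = 0.0820). It passed without O (YgWT) replicate 4 (-0.73, adjusted p = 0.0490), with array weights (-0.70, adjusted p = 0.0278) and in voom on the recovered reads, which adds less to low values (-1.09, adjusted p = 0.0494). In this contrast array weights called 21% of all tested genes lower, and voom 8.02%. Under median-of-ratios scaling the Abcg1 value was -0.55 and did not pass (adjusted p = 0.487). All O-O livers lay above all Yg WT livers in Abcg1, but that difference, 0.43 ± 0.16, did not pass (adjusted p = 0.0879).

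Markers of other liver cells moved in the same direction as Abcg1. The sum of 11 Kupffer cell (resident macrophage) markers ran from 70.8 to 211.5 RPKM in O (Yg Het), from 229.1 to 425.9 RPKM in O (YgWT) and from 241.7 to 670.7 RPKM in O-O livers, with no overlap between O (Yg Het) and either other old group. O (Yg Het) replicate 4 had the lowest sum (70.8 RPKM) and the lowest Abcg1, and O-O replicate 4 the highest of both (670.7 and 2.94 RPKM). Within their groups, O (Yg Het) replicate 1 (211.5 and 1.14 RPKM) and Yg Het replicate 2 (310.7 and 1.746 RPKM) were highest in both. In Yg WT livers, replicate 2 was highest in both (353.3 and 1.597 RPKM) and replicate 1 lowest in both (170.1 and 1.055 RPKM). Some other livers did not match in this way. O (YgWT) replicate 4 had the lowest sum of its group (229.1 RPKM), but replicate 5, with 377.7 RPKM, had the lowest Abcg1 (1.591 RPKM). O-O replicate 3 had the lowest sum of its group (241.7 RPKM) and a middle Abcg1 (1.849 RPKM). Of the 11, 9 fell in O (Yg Het) against O-O livers (median -1.22) and 9 against O (YgWT) livers (median -1.05), and none was at 0 in any liver. Median-of-ratios scaling left 9 and 9 lower. Sinusoidal endothelial markers fell too, 5 of 7 against O-O and 6 of 7 against O (YgWT) livers, with sums of 21.1 to 47.0 RPKM in O (Yg Het), 48.3 to 63.7 RPKM in O (YgWT) and 55.2 to 58.5 RPKM in O-O livers. Stellate cell and fibroblast markers fell for 7 of 8 and 6 of 8, with sums of 42.8 to 97.6 RPKM in O (Yg Het), 107.3 to 176.3 RPKM in O (YgWT) and 118 to 152.2 RPKM in O-O livers. After scaling, endothelial markers were lower for 3 and 4 of 7 and stellate markers for 5 and 5 of 8. Of the blood cell markers tested, 3 of 3 neutrophil markers fell in both comparisons, 3 of 3 lymphocyte markers fell against O-O livers and 0 of 3 against O (YgWT) livers, and 1 and 3 of 5 erythroid markers fell. After scaling these were 0 and 2 for neutrophils, 2 and 0 for lymphocytes and 0 and 0 for erythroid cells. Of all tested genes, 22.7% and 29.6% fell against O-O and O (YgWT) livers, and 6.45% and 9.53% after scaling. The unscaled erythroid count against O-O livers and lymphocyte count against O (YgWT) livers did not exceed these shares. Of 8 hepatocyte markers 0 fell in either comparison, and 2, Alb (1.095) and Ttr (0.31), rose against O (YgWT) livers, where 3.07% of all genes rose. In whole liver, fewer cells of a type and less RNA per cell cannot be told apart. The part of these cells in the levels of Abcg1, Nr1h3 and Mylip was not tested.

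**Figure D3:**
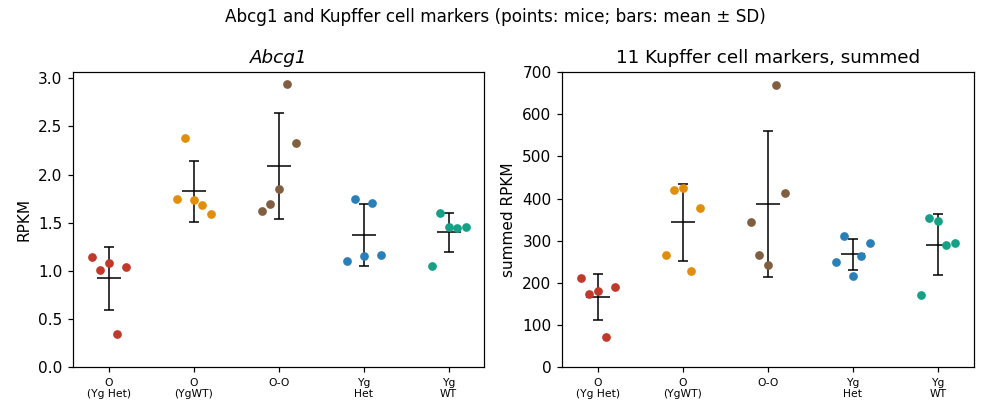
Abcg1 (left, RPKM) and the sum of 11 Kupffer cell markers (right, summed RPKM) by group; points are mice and bars are mean ± SD (n = 5). O (Yg Het) livers lie lowest among the old groups in both panels, with replicate 4 at 0.346 RPKM and 70.8 RPKM.

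Mylip, the ligase that removes the LDL receptor, also fell, but its call was less firm. Mylip (chromosome 13, 45389742 to 45412022) read 2.618, 2.758, 2.665, 1.596 and 2.472 RPKM in O (Yg Het) livers, 3.202, 2.736, 3.897, 2.848 and 3.688 RPKM in O (YgWT) livers and 3.395, 4.452, 2.995, 3.929 and 3.69 RPKM in O-O livers. O (Yg Het) livers lay below all O-O livers and overlapped O (YgWT) livers by 1 mouse. The difference was -0.53 ± 0.16 against O-O livers (adjusted p = 0.0199) and -0.38 ± 0.16 against O (YgWT) livers, which did not pass (adjusted p = 0.0703). The O-O call was lost without O (Yg Het) replicate 4 (-0.41, adjusted p = 0.0798), without O-O replicate 4 (-0.51, adjusted p = 0.0510), with Alb reads taken out of the total (-0.45, adjusted p = 0.0668) and under median-of-ratios scaling (-0.38, adjusted p = 0.104). Mylip averaged 3.34 ± 0.76 RPKM in Yg Het and 3.41 ± 1.03 RPKM in Yg WT livers (SD, n = 5 each).

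The phospholipid genes did not pass in any comparison. Lpcat3 (chromosome 6, 124663027 to 124704418) averaged 30.8 ± 3.72 RPKM in O (Yg Het), 26.9 ± 2.33 RPKM in O (YgWT), 31.1 ± 4.08 RPKM in O-O, 29.5 ± 2.88 RPKM in Yg Het and 25.01 ± 5.97 RPKM in Yg WT livers. On the deposited scale O (Yg Het) livers differed from O (YgWT) livers by 0.19 ± 0.12 (adjusted p = 0.243). Median-of-ratios scaling made this 0.36 and a call (adjusted p = 0.0418), so Lpcat3 was the 1 gene of the set called higher in O (Yg Het) livers on that scale. O-O livers differed from Yg WT livers by 0.33 ± 0.12 (adjusted p = 0.0871), which passed without Yg WT replicate 1 (0.44, adjusted p = 0.0231). Lpcat3 shares 334 exon bases, 10.2% of its own, with Emg1 on the opposite strand.

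Pltp (chromosome 2, 164839518 to 164857711) was uneven in the old livers and even in the young ones. It read 23.47, 38.6, 14.46, 9.481 and 23.78 RPKM in O (Yg Het), 10.82, 16.07, 28.87, 12.1 and 16.21 RPKM in O (YgWT) and 16.46, 16.45, 12.04, 21.98 and 22.51 RPKM in O-O livers. The SD was 11.1 RPKM in O (Yg Het), 7.15 RPKM in O (YgWT) and 4.37 RPKM in O-O livers, against 1.09 RPKM in Yg Het and 1.28 RPKM in Yg WT livers, and all 10 young livers lay between 10.65 and 14.15 RPKM. Its nearest difference to the threshold was O (Yg Het) against Yg Het livers, 0.65 ± 0.27 (adjusted p = 0.111). Pltp shares 495 exon bases, 19.3% of its own, with Ctsa on the opposite strand, and Ctsa averaged 27.5 RPKM.

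Counted over the set, O (Yg Het) against O-O livers gave 3 genes lower (Abcg1, Nr1h3 and Mylip) and 0 higher of 9, where 22.7% of all tested genes were lower and 0.907% higher. The members' median was -0.37, beside -0.14 over all tested genes. O (Yg Het) against O (YgWT) livers gave 2 lower (Abcg1 and Nr1h3) and 0 higher, where 29.6% of all tested genes were lower and 3.07% higher, and the members' median of -0.10 stood beside -0.15 over all genes. These counts are near the background, so the drop is not a result about LXR genes as a set. Under median-of-ratios scaling, 6.45% were lower and 3.53% higher in the O-O comparison, with Abcg1 the 1 member called, and 9.53% lower and 8.93% higher in the O (YgWT) comparison, with Abcg1 lower and Lpcat3 higher. Both comparisons share the O (Yg Het) livers and are not independent.

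In the other comparisons 0 of 9 passed by limma. The members that reached an unadjusted p under 0.05 are set here beside the share of all tested genes at that same level, and the share of adjusted calls is given first. O (YgWT) against O-O livers had 0.747% of tested genes called higher and 0.427% lower, and 2 members (Abcg5 and Abcg8) were lower at the unadjusted level, where 7.81% of all genes were. Yg Het against Yg WT livers had 3.72% called higher and 1.41% lower, and 1 member, Lpcat3 (0.26 ± 0.12), was higher at the unadjusted level, where 16.1% of all genes were. Scaling by the median of ratios changed the calls there to 2.29% higher and 2.50% lower. O (YgWT) against Yg WT livers had 0.117% called higher and 0% lower (0.0427% and 0.0107% after scaling), and 0 members reached the unadjusted level, where 11.6% of all genes were higher and 1.06% lower. O (Yg Het) against Yg Het livers had 0.907% called higher and 4.64% lower (0.896% and 0.181% after scaling). At the unadjusted level Pltp was higher there, with 2.58% of all genes, and Abcg1, Nr1h3 and Mylip were lower, with 27.7% of all genes. O-O against Yg WT livers had 9.11% called higher and 1.74% lower (4.09% and 4.14% after scaling). At the unadjusted level 5 members (Abcg5, Abcg8, Abcg1, Nr1h2 and Lpcat3) were higher, with adjusted p from 0.0660 to 0.153, where 23.5% of all genes were higher. The difference between the contrasts of the old and the young had 0% called higher and 0.0107% lower, and Abcg1 and Nr1h3 were lower at the unadjusted level, where 30.3% of all genes were.

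**Figure D4:**
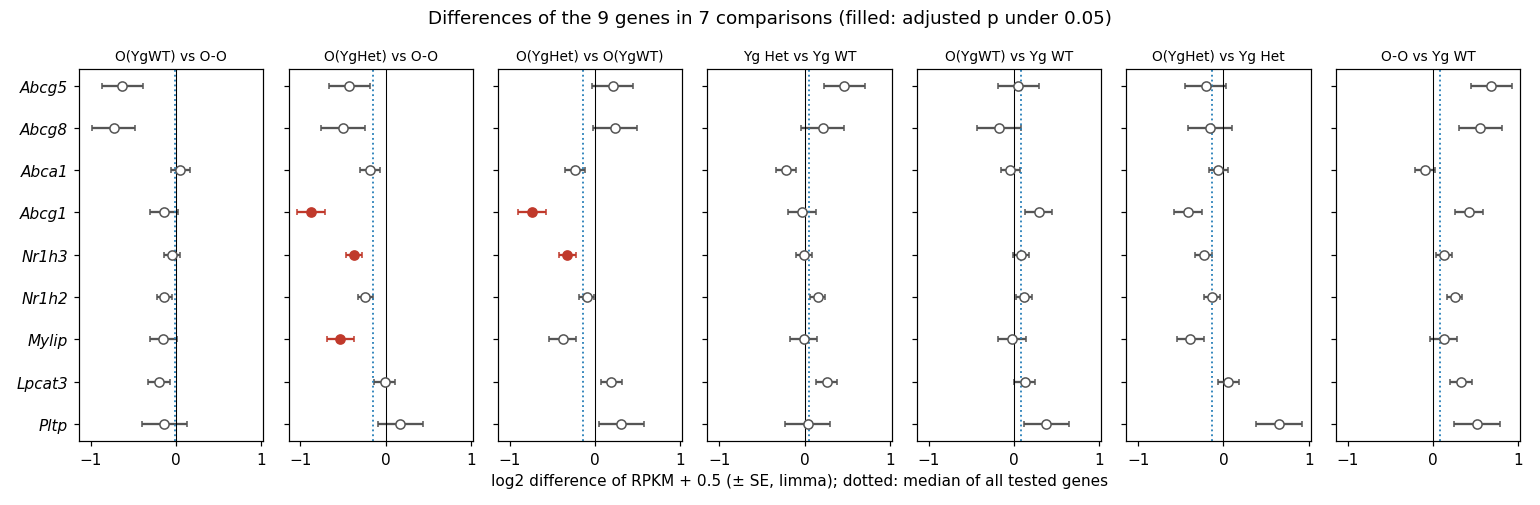
Log2 differences of RPKM plus 0.5 (± SE, limma) for the 9 genes in the comparisons of groups; filled points passed an adjusted p of 0.05. The filled points are Abcg1, Nr1h3 and Mylip in O (Yg Het) against O-O livers, at -0.88, -0.37 and -0.53, and Abcg1 and Nr1h3 in O (Yg Het) against O (YgWT) livers, at -0.74 and -0.32.

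Other genes of the pathway were read from 5 lists. Of 18 further LXR targets tested, 4 fell and 0 rose in O (Yg Het) against O-O livers, a share close to the 22.7% of all tested genes that fell there: Tgm2 (-0.71, adjusted p = 0.00347), an enzyme that macrophages use in engulfing dying cells, Lpl (-1.02), lipoprotein lipase, Apoc1 (-0.39), an apolipoprotein, and Mertk (-0.33), a receptor for dying cells. Against O (YgWT) livers, where 29.6% of all genes fell, 3 fell (Tgm2 -0.91, Lpl -0.91 and Apoc1 -0.32) and 1 rose, Rnf145 (0.43), a ligase of the sterol response. Mertk did not pass against O (YgWT) livers (-0.13, adjusted p = 0.353). Apoe (-0.16 and 0.04) and Cd36 (-0.27 and -0.21), on the same list, passed in neither comparison. Macrophages also express Tgm2, Lpl, Apoc1 and Mertk, and the Kupffer cell, endothelial and stellate markers above fell in both comparisons. The part of any of these cells in the levels of these targets was not tested. Under median-of-ratios scaling Tgm2 and Lpl kept both calls (-0.54 and -0.90 against O-O livers, -0.75 and -0.80 against O (YgWT) livers) and Apoc1 and Mertk lost theirs. O-O against Yg WT livers had 5 of 18 higher and 0 lower, including Rnf145 (0.90, adjusted p = 0.00263), the fatty acid carrier Cd36 (0.94) and Eepd1 (0.58), which aids cholesterol efflux in macrophages. Yg Het against Yg WT livers had 2 of 18 higher, Rnf145 (0.80, adjusted p = 0.00681) and Eepd1 (0.60, adjusted p = 0.0282). O (Yg Het) against Yg Het livers had 2 higher, Cd36 (0.83) and Fasn (1.00). Of all tested genes, 9.11%, 3.72% and 0.907% were higher in these comparisons, in that order. After scaling the list had 2, 2 and 1 higher, beside 4.09%, 2.29% and 0.896% of all genes. Eepd1 in O-O against Yg WT livers (0.50, adjusted p = 0.0541) and Fasn (1.14, adjusted p = 0.0585) lost their calls. The list's median was -0.13 in O (Yg Het) against O-O livers and -0.10 against O (YgWT) livers, beside -0.14 and -0.15 over all genes, and 0.03 and 0.06 after scaling.

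Cholesterol synthesis genes, the SREBP2 targets that cells switch on when sterol is low, moved in both directions. Of 11 tested, 8 rose and 0 fell in O (Yg Het) against O-O livers, among them Mvd (1.49 ± 0.35, adjusted p = 0.00523), an enzyme of the mevalonate pathway, and Hmgcs1 (1.30). In O (Yg Het) against Yg Het livers 9 rose, with Hmgcs1 at 1.68 and Sqle at 2.21. In the young the direction was the other one, with 6 of 11 lower and 0 higher in Yg Het against Yg WT livers, including Hmgcs1 (-1.66, adjusted p = 0.00810), Sqle (-1.91) and Mvd (-1.43). O-O against Yg WT livers had 5 lower, among them Mvd (-1.34) and Hmgcs1 (-1.29). Of all tested genes, 0.907% were higher in O (Yg Het) against O-O livers and 0.907% against Yg Het livers. In Yg Het and in O-O against Yg WT livers, 1.41% and 1.74% of all tested genes were lower. The difference between the contrasts of the old and the young passed for 0 of 11, with 10 higher at an unadjusted p under 0.05, where 0.992% of all genes were higher and 30.3% lower. After scaling the counts were 11 and 10 higher in the comparisons of O (Yg Het) with O-O and Yg Het livers. They were 6 and 4 lower in those of Yg Het and O-O with Yg WT livers. The scaled shares of all tested genes there were 3.53% and 0.896% higher, and 2.50% and 4.14% lower.

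In the list of 15 tested genes of HDL and intracellular sterol handling, Scarb1, the HDL receptor, fell in O (Yg Het) against O-O livers (-0.58, adjusted p = 0.00266), and Npc2, a lysosomal cholesterol carrier, fell with it (-0.37). The sterol carrier Stard4, itself an SREBP2 target, rose against O-O livers (0.60) and against O (YgWT) livers (0.78), where the lysosomal exporter Npc1 rose too (0.57). The list's counts were 1 higher and 2 lower against O-O livers and 2 higher and 4 lower against O (YgWT) livers, 4 and 0 in O-O against Yg WT livers, and 1 and 0 in Yg Het against Yg WT livers. The 4 that fell against O (YgWT) livers included Osbp (-0.30) and Lipa (-0.37). Of all tested genes, 22.7% and 29.6% were lower against O-O and O (YgWT) livers, and 0.907% and 3.07% higher. In O-O and Yg Het against Yg WT livers, 9.11% and 3.72% were higher. The list's medians were -0.12 against O-O and 0.01 against O (YgWT) livers, beside -0.14 and -0.15 over all genes. After scaling the list's counts were 1 and 1 against O-O livers, 3 and 0 against O (YgWT) livers, 1 and 0 in O-O against Yg WT livers and 0 and 0 in Yg Het against Yg WT livers. Scarb1 stayed called against O-O livers (-0.42, adjusted p = 0.0156) and Npc2 did not. Of 8 receptor partners and cofactors, 2 fell against O-O livers, Rxrg (-0.34) and the coactivator Ncoa2 (-0.19), and 3 fell against O (YgWT) livers, the coactivators Ncoa1 (-0.27), Ncoa2 (-0.19) and Ncoa3 (-0.27). These counts are close to the 22.7% and 29.6% of all genes that fell, the list's medians were -0.15 and -0.17 beside -0.14 and -0.15 over all genes, and after scaling 0 of 8 passed in either. Rxrg was the 1 of 8 that rose in O-O against Yg WT livers (0.40). Of 5 oxysterol enzymes, Cyp46a1, which makes an oxysterol best known from brain, rose in O (Yg Het) against O (YgWT) livers (1.36), in Yg Het against Yg WT livers (1.202) and in O-O against Yg WT livers (1.32). Cyp39a1, which clears that oxysterol, rose with it in O (Yg Het) against O (YgWT) livers (1.18), and Cyp7b1, another oxysterol hydroxylase, fell in O-O against Yg WT livers (-1.07). Clock genes moved in these same 3 comparisons, with 8 of 11 higher and 2 lower in O (Yg Het) against O (YgWT) livers, 7 and 2 in Yg Het against Yg WT livers and 7 and 2 in O-O against Yg WT livers. They also moved in O (YgWT) against O-O livers, with 2 higher and 5 lower, where Cyp46a1 was at -0.86 (adjusted p = 0.0962). Of 11 clock genes, 0 passed in O (Yg Het) against O-O livers, where Cyp46a1 was at 0.50 (adjusted p = 0.162). Their part in the levels of these enzymes was not tested. O (YgWT) against O-O and O (YgWT) against Yg WT livers had 0 calls in all 5 pathway lists; after scaling, 1 gene of the HDL and sterol handling list, the oxysterol-binding protein Osbp, was higher in O (YgWT) than in O-O livers (0.36, adjusted p = 0.0489), named here after its value was seen.

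The genes whose log2 levels followed each member most closely over the 25 livers are given as a description, from Pearson r against the tested genes. Predicted genes were left out of this ranking. Groups were not subtracted, so differences between groups and in scaling enter these values. Abcg1 was closest to Axl (0.957), a receptor for dying cells found on Kupffer cells, Lgmn (0.946), a lysosomal protease, and Nid1 (0.944), a basement membrane protein. Mylip was closest to C1qtnf1 (0.885), Stab2 (0.846), a scavenger receptor on the sinusoidal endothelial list, and Slc43a3 (0.845). Nr1h3 was closest to Ppil2 (0.891), Elob (0.887) and Esrp2 (0.883), and Nr1h2 to Med15 (0.862) and Rnf31 (0.859). The nearest gene to Abcg5 after Abcg8 (0.948) was Slc7a2 (0.800), an arginine transporter, and the nearest to Abcg8 after Abcg5 was Cyp4f15 (0.791). Abca1 was closest to Tuba4a (0.844) and Stip1 (0.819), a chaperone partner, and Lpcat3 to Selenbp1 (0.847) and Samm50 (0.841). Pltp had no close companion, with Rtn4 at 0.719 as the nearest, so the wide Pltp levels of the old livers were followed least well by any other gene.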

How the data were processed

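Liver RNA of 25 mice was sequenced from TruSeq Stranded mRNA LT libraries, per the labels' protocols. The authors deposited 1 table of RPKM values with 1 column per mouse. The submitters' processing notes name STAR 2.4.2a, HTSeq and mm10. The annotation, strand setting and handling of multiply mapped reads are not given in the sources used here. Of 60354 rows, 17838 held a usable value above 0. Left out were 1 infinite row (Plin2) and 24 rows named by a date number.

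The 9372 genes that reached 1 RPKM in 5 or more libraries entered a single limma model (version 3.58.1, R 4.3.3) of all 5 groups, on log2 values after adding 0.5 RPKM. The model had 20 residual degrees of freedom and an intensity trend. Adjustment followed Benjamini-Hochberg over all genes tested, with a threshold of 0.05. Comparisons of 2 groups numbered 7, and an interaction compared the old with the young contrast. The correlation p-values came from 100000 draws. Labels do not say whether surgeries or runs were shared, so p-values measure the spread between these mice. Scaling rested on 24.9 M reads on average (SD 1.42, n = 25). Whole reads recovered from the RPKM steps gave a count-based alternative, limma voom. Other alternatives covered the added constant, the filter, scaling, the libraries fitted, weights, the replicate number and each library left out. The model was tested on simulated data.

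Positions and exon overlaps came from GENCODE M21, promoter sequences from RefSeq (GRCm38.p6). All 9 members were described. From each pathway list and comparison, up to 4 passing genes of lowest p were eligible to be named. For each member the 3 genes of highest Pearson r were eligible too, with predicted genes left out. Some of these are not reported here. Members and lists were chosen with earlier results of these data known, and motif letters with the sequences in view. Software also included Python 3.11.15, pandas 2.3.3, numpy 2.4.6, scipy 1.17.1 and matplotlib 3.10.9.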

Additional observations from a re-analysis of the deposited data

Results flagged for a closer look

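Of 45 sets of 5 livers (9 genes in 5 groups), 6 held a liver whose gap to its nearest neighbour took an unusual share of the group's range. Chance gives this in about 1 of 20 groups. Abcg8 stood at 57.27 RPKM in O (YgWT) replicate 2, against 15.92 to 25.36 RPKM in the other livers of that group, and the same liver had the highest Abcg1 of its group, 2.381 RPKM against 1.591 to 1.743 RPKM. Abcg1 stood at 0.346 RPKM in O (Yg Het) replicate 4, against 1.007 to 1.14 RPKM in the others, and Mylip at 1.596 RPKM in the same liver, against 2.472 to 2.758 RPKM. Abcg1 was also low in Yg WT replicate 1, at 1.055 RPKM against 1.449 to 1.597 RPKM, where the Kupffer cell marker sum was the lowest of its group (170.1 RPKM). In O (YgWT) replicate 2 that sum (420.5 RPKM) was not the highest of its group (425.9 RPKM). Abca1 stood at 18.59 RPKM in O-O replicate 3, against 13.66 to 14.72 RPKM.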

How the results depend on the processing

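Among gene values under the alternatives, 1483 stayed on their side of the threshold, 7 lost a call, 24 gained one, and 0 called values turned their direction. Among 1393 values not called under either setting, 69 had the other sign. Abcg1 kept both of its calls with each library left out and under every other setting that tested it, with adjusted p from 0.00115 to 0.0271. A filter of at least 5 RPKM leaves Abcg1 and Mylip untested, which gave 1 member called in O (Yg Het) against O-O livers and 1 against O (YgWT) livers. With that filter 16.7% and 27.5% of all tested genes were lower in these comparisons. Median-of-ratios scaling gave 1 in the O-O comparison, against 3 on the deposited scale. Array weights gave 4 in O (Yg Het) against O (YgWT) livers, where 38.8% of all tested genes were lower. They gave 2 in O (Yg Het) against Yg Het livers, where 19.1% of all genes were lower. In the interaction of pair type with age they gave 2, where 21% of all genes were lower. After values had been seen, 2 settings were added. Voom on recovered reads gave 2 in O (Yg Het) against Yg Het livers and 1 in the interaction, where 27.3% and 8.02% of all genes were lower. Leaving Alb out of the read total gave 2 in O (Yg Het) against O-O livers and 1 in O (Yg Het) against O (YgWT) livers. There 9.61% and 12.25% of all genes were lower. The same setting gave 1 in O-O against Yg WT livers, where 11.55% of all genes were higher. The cause was not tested. With each library left out in turn, members called ran from 0 to 2 in O (YgWT) against O-O livers, from 0 to 2 in O-O against Yg WT livers and from 0 to 2 in the interaction.

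Labels give the groups the same replicate numbers without saying that they pair the mice. Livers with the same number did not deviate together in every pair of groups. They did so most for O (YgWT) with Yg WT livers, where r ran from 0.077 to 0.275 (mean 0.202, against -0.051 for other numbers). There 6 of 10 livers were closest to their own number. For O (Yg Het) with Yg Het livers r ran from -0.125 to 0.232, and 2 of 10 were closest to their own number. In every other pair of groups the lowest r was negative, and at most 4 of 10 were closest. The main model did not pair livers. The replicate block gave 3 members called in O (Yg Het) against O-O livers, 2 against O (YgWT) livers and 0 elsewhere, as without it. Over all genes it gave 50 higher and 138 lower in O (Yg Het) against Yg Het livers, against 85 and 435 without it. Depth limits Abcg1 most, since 38 reads in the lowest library carry a counting error of 16.2%.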

Other observations

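The ratio of Abcg5 to Abcg8 was looked at after the levels had been seen. It averaged 1.21 ± 0.09 in Yg Het livers (1.10 to 1.32) and 1.02 ± 0.07 in Yg WT livers (0.938 to 1.08; SD, n = 5 each), with no overlap, a log2 difference of 0.25. An exact two-sided permutation test over the 5 against 5 livers gave p = 0.00794, the smallest this design allows, and 0.0556 after Benjamini-Hochberg adjustment over 7 comparisons, so it did not pass. O (YgWT) livers averaged 1.195 ± 0.09, higher than Yg WT livers by a log2 difference of 0.23 (adjusted p = 0.0833 in the same exact test). The other old groups averaged 1.17 ± 0.10 in O (Yg Het) and 1.12 ± 0.15 in O-O livers. The mean ratio was lowest in Yg WT livers.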
